A study of Mus musculus with 9 samples.

Results

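The 3 arrays numbered replicate 3 in their titles, out of 9 in the series, were compared with the 6 arrays numbered 1 and 2. Each number occurred once in each of 3 hairpin groups, so the comparison was made within groups, with the hairpin as a block, and describes differences between repeats that cut across the knockdown. All arrays measured total RNA of R1E mouse embryonic stem (ES) cells transduced with a lentiviral short hairpin RNA. The hairpin was shLuc, against luciferase, in the control group, and shApela_#1 or shApela_#2, against the Apela transcript, in the others. All groups shared the same medium, with 15% fetal bovine serum and 1000 units/ml leukemia inhibitory factor (LIF). The sample records used here name no drug for any group. The labels do not say what arrays of equal number shared (a culture, a transduction or a day), nor whether repeats were separate cultures. The p-values thus reflect the scatter of these arrays alone, part or all of which may be technical.

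Mouse ES cells held in serum and LIF are self-renewing cells of the early epiblast type. LIF acts through STAT3, which keeps naive pluripotency genes such as Klf4 and Tfcp2l1 active, while FGF signalling through ERK pushes cells towards the primed or formative state. Growth factor and serum signals also switch immediate early genes such as Fos on within minutes, and shortage of amino acids acts through the kinase GCN2 and the factor ATF4, in what is called the integrated stress response.

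Values are log2 expression levels, and each difference is the mean of replicate 3 minus the mean of replicates 1 and 2, on the log2 scale, with its standard error (SE). Array medians lay between 7.03 and 7.12. The replicate 3 array of shApela_#2 stood apart, with an interquartile range of 3.29 against 3.50 to 3.59 on the other 8 arrays, so results are also given for shLuc and shApela_#1 alone (6 arrays). Markers of the labelled cell type were high on every array: Nanog lay between 12.24 and 12.35, Sox2 between 11.97 and 12.14 and Pou5f1 between 11.92 and 12.18. Apela, the hairpins' target, was at 11.40, 11.31 and 11.19 with shLuc, 9.76, 9.68 and 9.65 with shApela_#1, and 9.79, 9.79 and 9.56 with shApela_#2. Apela was thus lower in both knockdown groups at every replicate number. It was also 0.16 lower in replicate 3 (SE 0.04, adjusted p = 0.0429), a call that was not kept with 6 arrays (adjusted p = 0.152).

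Replicate 3 differed from the other repeats at 2400 of 19938 genes (12.0%; limma, adjusted p under 0.05), of which 1307 were higher (6.56%) and 1093 lower (5.48%). Most of these differences were small: their median size was 0.23. At least 1.5-fold differences numbered 13 on the higher and 42 on the lower side, and 6 genes fell at least 2-fold: Copz2, Fos, the histone gene H3c15 and the microRNA genes Mir363, Mir15a and Mir15b. Of the 2400 genes, 2371 had their replicate 3 array beyond both others, on the same side, in all 3 groups. This was so for 13.5% of all genes on the higher and 11.1% on the lower side. The 3 replicate 3 arrays lay above all 6 others at 7.17% of all genes and below all 6 at 5.75%. Genes reported below as rising or falling passed a test of the same difference. The largest rises and falls were also chosen for having replicate 3 beyond both others in each group. Their lack of overlap therefore describes the values and adds no support to the calls.

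With shLuc and shApela_#1 alone, 2317 genes passed (11.6%), 1566 higher (7.85%) and 751 lower (3.77%). The last 2 shares are the background for the list counts with 6 arrays. Both fits shared 1617 genes with the same direction, 67.4% of the 9-array and 69.8% of the 6-array calls, and 0 genes had opposite directions. The 6 arrays are part of the 9, so the fits are not independent and opposite directions were unlikely from the start. Without the narrow array, the other 8 gave 2735 genes (13.7%), 1797 higher (9.01%) and 938 lower (4.70%). The counts rested strongly on single arrays. Without shLuc replicate 3, 298 of all genes were called higher and 365 lower. The list counts given below for that fit are to be read against these totals, since calls over all genes became fewer too. The 9-array count was 663 without shLuc replicate 3, 1288 without shLuc replicate 2, 1423 without shApela_#1 replicate 1, 1580 without shApela_#1 replicate 2 and 1549 without shApela_#2 replicate 2. In the 6-array fit, limma called 0 genes without the replicate 3 array of shLuc and 0 without that of shApela_#1, where 4029 and 3949 genes had an unadjusted p under 0.05. That count was 179 without shApela_#1 replicate 1, 713 without shApela_#1 replicate 2, 1357 without shLuc replicate 2 and 1471 without shLuc replicate 1.

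**Figure D1:**
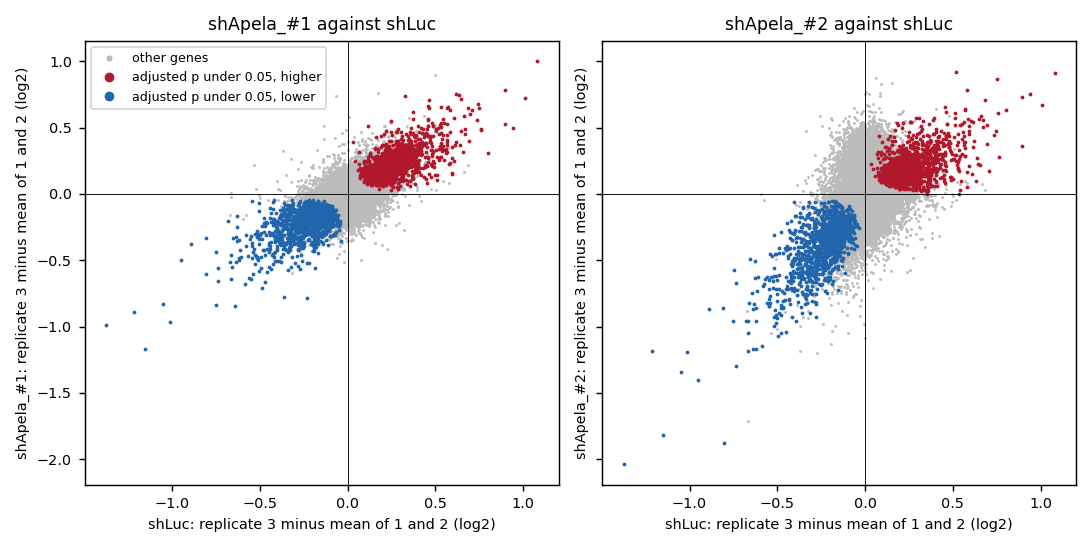
Replicate 3 minus the mean of replicates 1 and 2 (log2) for each of 19938 genes, in shApela_#1 (left, vertical axis) and shApela_#2 (right, vertical axis) against shLuc (horizontal axis); red and blue points are the 1307 higher and 1093 lower genes of the 9-array test. The cloud of all genes lies along the diagonal for shApela_#1 and is taller for shApela_#2, where the differences had an SD of 0.23 over genes against 0.13 in the other groups.

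Across genes, the replicate 3 difference of shLuc correlated at 0.68 with that of shApela_#1 and at 0.47 with that of shApela_#2, and those of both Apela hairpins at 0.21. Genes are not independent replicates, so these values are descriptions. In shApela_#2 the difference also ran against the level of the gene (Spearman correlation -0.39 across genes, against 0.14 in shLuc and 0.17 in shApela_#1): weakly measured genes tended to be higher and strongly measured genes lower on that array.

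The genes that rose most included cell cycle and neural cytoskeleton genes. Nefl, which encodes the light chain of neurofilaments, ran from 8.38 over a median of 8.51 to 8.58 in replicates 1 and 2, and was at 9.61 (shLuc), 9.46 (shApela_#1) and 9.42 (shApela_#2) in replicate 3. The groups did not overlap, and Nefl rose by 1.00 (SE 0.05, adjusted p = 0.000291; 2.00-fold). Nefh, the heavy neurofilament chain, rose by 0.59 (SE 0.07, adjusted p = 0.00302). Ccnd2, encoding cyclin D2, which drives entry into the cell cycle, ran from 8.75 over 8.96 to 9.03 in replicates 1 and 2 and was at 9.80, 9.74 and 9.61 in replicate 3. Its 3 replicate 3 arrays lay above all 6 others, with a rise of 0.80 (SE 0.07, adjusted p = 0.00155). Ccnd1, encoding cyclin D1, rose by 0.42 (SE 0.04, adjusted p = 0.00155).

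Myc, a transcription factor gene of growth and proliferation, ran from 8.68 over 9.17 to 9.24 and was at 9.86, 9.82 and 9.83 in replicate 3. The replicate 3 arrays were the 3 highest and lay close together, and the rise was 0.75 (SE 0.11, adjusted p = 0.00611). The other large rises were Zfp428 (0.80), Enox1 (0.68), Crct1 (0.63), Faap24 (0.61), Calml4 (0.59), Zp3 (0.58), the glutathione peroxidase gene Gpx2 (0.58) and Vrtn (0.57), together with Lef1 (0.64), a Wnt effector. Lef1 and Gpx2 overlapped between the repeats across groups, though not within a group. Lef1 lost its call with 6 arrays (adjusted p = 0.0667) and in the 8-array fits without shLuc replicate 3 or shApela_#1 replicate 3. Vrtn lost it without shLuc replicate 3.

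**Figure D2:**
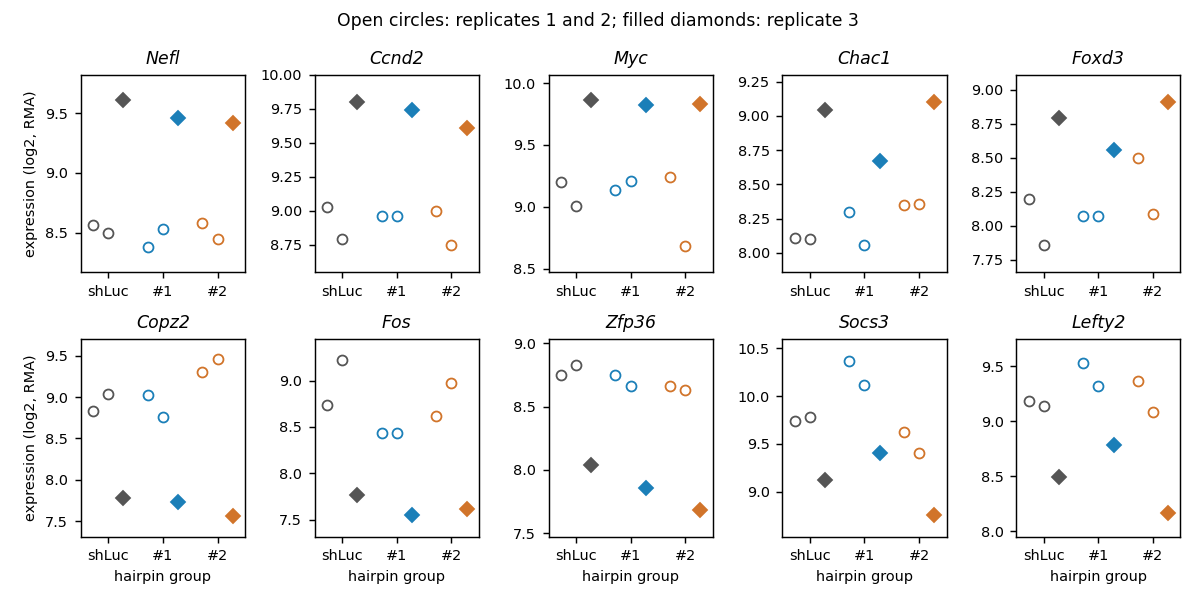
Expression (log2) on each array for 5 genes that rose (top) and 5 that fell (bottom), by hairpin group (shLuc, shApela_#1 and shApela_#2); open circles are replicates 1 and 2 and filled diamonds replicate 3. In every panel the diamond lies beyond both circles of its own group, which the choice of these genes required. For Nefl all 3 diamonds, from 9.42 to 9.61, lie above all 6 circles.

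Genes of the integrated stress response were higher in replicate 3. Of 39 measured, 24 rose (61.5% against 6.56% of all genes) and 2 fell, with a median difference of 0.20 against 0.03 over all genes. Chac1, whose enzyme breaks down glutathione, ran from 8.06 over 8.20 to 8.36 in replicates 1 and 2 and was at 9.04, 8.67 and 9.10 in replicate 3. All 3 arrays lay above the other 6, and Chac1 rose by 0.73 (SE 0.08, adjusted p = 0.00229).

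The genes that rose cover several steps of amino acid supply. Transporter genes were among them: Slc7a1, for cationic amino acids, rose by 0.46 (SE 0.04, adjusted p = 0.00155) and Slc6a9, for glycine, by 0.42 (SE 0.05, adjusted p = 0.00292). Enzymes of amino acid and one-carbon metabolism rose too, with Cth at 0.40, Gpt2 at 0.38 and Mthfd2 at 0.37. Mthfd2, the mitochondrial folate enzyme, ran from 9.89 over 10.02 to 10.05 and was at 10.44, 10.26 and 10.38 in replicate 3, again without overlap. The 7 aminoacyl-tRNA synthetase genes Nars, Yars, Mars1, Gars, Wars, Cars and Sars, whose enzymes charge tRNAs, rose by 0.17 to 0.30. For Aars, also on the list as drawn up, no value is given here. The secreted glycoprotein gene Stc2 rose by 0.52 (SE 0.08, adjusted p = 0.00651).

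The main transcription factor genes of the response were not among those that rose. Atf4, which the response controls mainly through translation, differed by -0.02 (SE 0.05, adjusted p = 0.762). Ddit3 and Atf3, induced by strong stress, fell by 0.26 and 0.24 (adjusted p = 0.0427 and 0.0435), calls that were not kept with 6 arrays (adjusted p = 0.0785 and 0.1). Asns, a standard ATF4 target, differed by 0.09 (adjusted p = 0.158). With shLuc and shApela_#1 alone, 23 genes of the list rose and 0 fell, 22 of them the same genes, against 7.85% of all genes higher. Without shLuc replicate 3 the list's count was 12, while its median difference stayed between 0.19 and 0.22 over the 9 fits that each left out 1 array.

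The promoters of this list were searched for TGATGNAA, the core letters of the composite element that ATF4 binds, which overlaps the sites of C/EBP and other ATF factors, on both strands of the 250 bases before the start of each gene (RefSeq, assembly GRCm38.p6). It occurred in 8 of the 32 promoters of the list that were given (25%), and in 954 of 27025 promoters of all genes (3.53%). Within the list it occurred in 5 of the 17 whose genes rose (29.4%) and 1 of the 2 whose genes fell. The list was drawn up from genes of a response that acts through ATF4, so its share is no result about replicate 3. Whether a match goes with a rise was not tested. The promoters of Chac1, the largest rise of the list, and of Nupr1, a stress-induced chromatin protein gene that rose by 0.28 (SE 0.06, adjusted p = 0.0172), are shown with the match, which lies on the opposite strand in both, in capitals.
Chac1 (chr2:119350992-119351241, plus strand): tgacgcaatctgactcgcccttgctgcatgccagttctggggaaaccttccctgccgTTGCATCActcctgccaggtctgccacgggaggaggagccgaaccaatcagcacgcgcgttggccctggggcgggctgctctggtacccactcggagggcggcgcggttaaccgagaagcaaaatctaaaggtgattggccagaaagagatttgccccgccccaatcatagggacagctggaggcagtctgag
Nupr1 (chr7:126625471-126625720, minus strand): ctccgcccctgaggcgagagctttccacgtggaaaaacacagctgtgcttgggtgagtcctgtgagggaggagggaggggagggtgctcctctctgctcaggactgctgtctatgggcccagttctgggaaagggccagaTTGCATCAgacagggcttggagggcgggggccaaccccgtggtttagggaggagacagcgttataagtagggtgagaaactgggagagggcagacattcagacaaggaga
The match begins 193 bases before the start of Chac1 and 110 bases before that of Nupr1. Asns, Fgf21 and Atf3 also held a match, and their differences were 0.09, 0.07 and -0.24, so a match did not go with a rise in every gene.

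Another list was drawn up after values had been seen and is therefore a description. It was made for ribosome biogenesis, which includes the making and processing of ribosomal RNA. Of its 35 genes, 23 rose (65.7% against 6.56% of all genes) and 0 fell, with a median of 0.17. Polr1b, a subunit of RNA polymerase I, ran from 11.14 over 11.17 to 11.23 in replicates 1 and 2 and was at 11.53, 11.46 and 11.44 in replicate 3. The arrays did not overlap, and Polr1b rose by 0.30 (SE 0.03, adjusted p = 0.00213). The helicase gene Ddx21 rose by 0.23 (SE 0.03, adjusted p = 0.00292), and Odc1 and Srm, of polyamine synthesis, by 0.20 each. The nucleolar protein genes Npm1 (-0.09), Ncl (0.03) and Fbl (0.05) did not pass. With 6 arrays 24 genes rose. Without shLuc replicate 3 the count was 4, where the calls over all genes also went from 1307 to 298 higher. The median lay between 0.15 and 0.17 in every 9-array fit that left out 1 array. Of 37 ribosomal protein genes, 0 rose and 1 fell, with a median of -0.04.

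Many immediate early genes, the first to respond to serum and growth factors, fell in replicate 3. Of 24 measured, 12 fell (50% against 5.48% of all genes) and 1, Myc, rose, with 17 below 0, 7 above 0 and a median difference of -0.18. Fos, a component of the AP-1 transcription factor, ran from 8.44 over 8.68 to 9.22 in replicates 1 and 2 and was at 7.76, 7.55 and 7.61 in replicate 3. All replicate 3 arrays lay below the other 6, and Fos fell by 1.10 (SE 0.12, adjusted p = 0.00225), to 46.7% of its level in the other repeats.

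Zfp36, whose protein destabilizes AU-rich mRNAs, ran from 8.63 over 8.71 to 8.83 and was at 8.04, 7.86 and 7.68 in replicate 3. It fell by 0.85 without overlap (SE 0.05, adjusted p = 0.000312). Fosb, a relative of Fos, fell by 0.71 (SE 0.14, adjusted p = 0.0141), although shApela_#1 at 8.28 and 8.05 in replicates 1 and 2 reached the level of shLuc in replicate 3 (8.21). Without shLuc replicate 3, the call of Fosb was lost (adjusted p = 0.0948). Klf6 fell by 0.52, Jun by 0.47, the phosphatase gene Dusp1 by 0.43 and Btg2 by 0.42, with adjusted p between 0.00396 and 0.00779. Egr1 fell by 0.21 (SE 0.05, adjusted p = 0.031), a call not kept with 6 arrays (adjusted p = 0.103).

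With 6 arrays 8 genes of the list fell and 1 rose, and without shLuc replicate 3 the 9-array count of falls was 7. Members that did not pass ranged from -0.17 (Ier3) to 0.12 (Nr4a2). Srf, the factor that binds the CArG box of many of these genes, differed by 0.03 (adjusted p = 0.481). A CArG box was found in the 250 bases before the start of 2 of 18 listed genes (11.1%), Zfp36 and Srf. It was found in 1 of the 9 whose genes fell (11.1%) and in 1.4% of all 27025 promoters. The share of the list goes with how it was drawn up and is no result about replicate 3. The Zfp36 promoter is shown, since it combines the smallest adjusted p of the list with a match (capitals, 58 bases before the start).
Zfp36 (chr7:28379229-28379478, minus strand): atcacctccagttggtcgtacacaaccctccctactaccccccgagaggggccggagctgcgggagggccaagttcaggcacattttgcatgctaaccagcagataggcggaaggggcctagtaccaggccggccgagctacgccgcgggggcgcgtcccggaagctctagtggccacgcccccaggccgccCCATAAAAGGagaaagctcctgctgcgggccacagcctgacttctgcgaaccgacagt

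**Figure D3:**
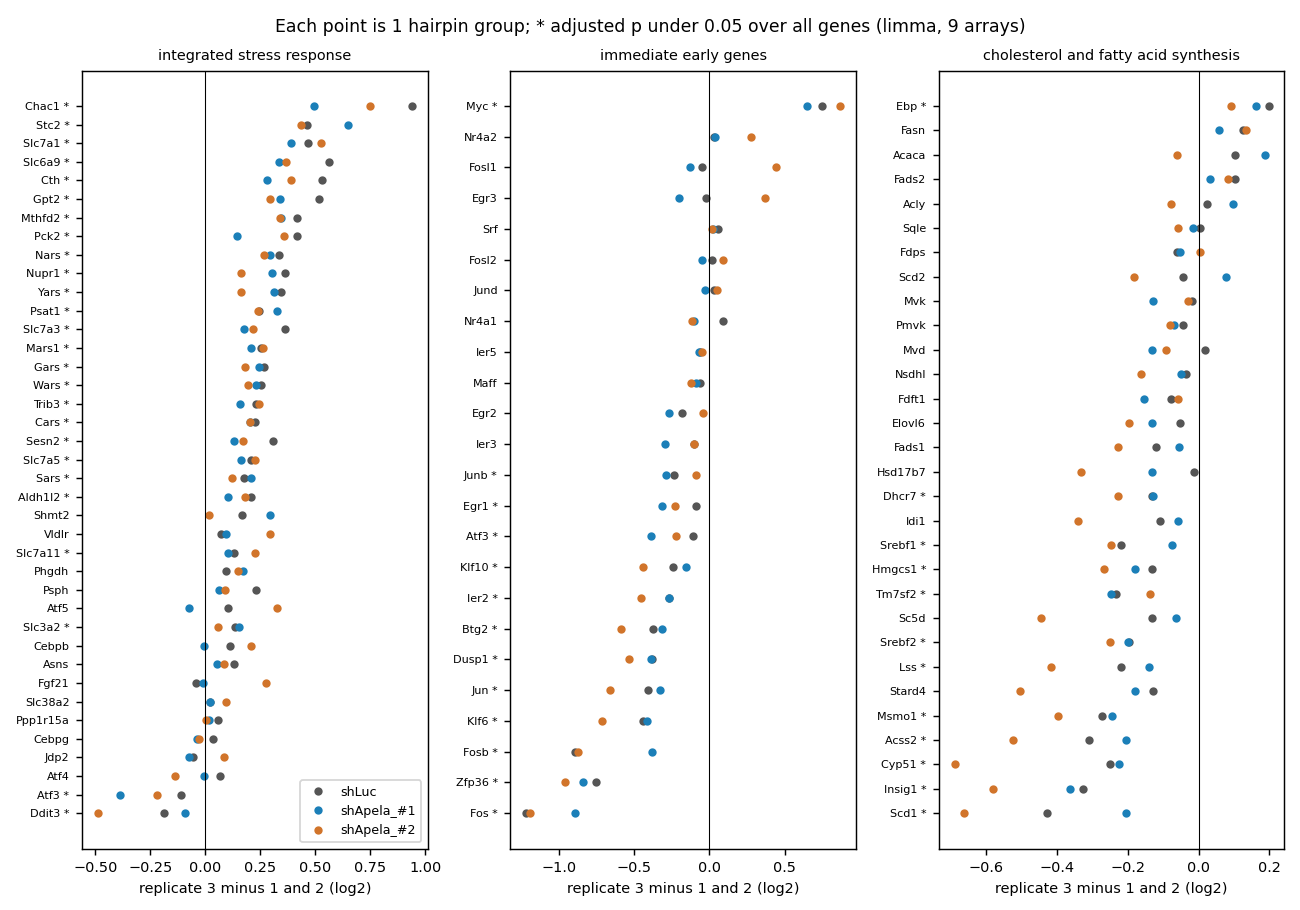
Replicate 3 minus the mean of replicates 1 and 2 (log2, horizontal axis) for every measured gene of 3 lists, with 1 point per hairpin group; an asterisk marks genes past the 0.05 threshold of the 9-array test. Most integrated stress response genes lie right of 0 in all 3 groups, 17 of 24 immediate early genes have a 9-array difference left of it, and the cholesterol and fatty acid genes have a median of -0.21 in shApela_#2 against -0.09 in shLuc and -0.13 in shApela_#1.

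Some targets of LIF and STAT3 fell, while the core pluripotency factors did not pass the test. Of 21 genes of LIF and STAT3 signalling, 5 fell (23.8% against 5.48% of all genes) and 2 rose (9.52% against 6.56%), with a median of -0.07. The counts were also 5 and 2 with 6 arrays. They were 2 and 2 without shLuc replicate 3. Socs3, the feedback inhibitor of the LIF receptor and a direct STAT3 target, ran from 9.40 over 9.76 to 10.37 in replicates 1 and 2 and was at 9.12, 9.40 and 8.76 in replicate 3. The shApela_#1 array of replicate 3 was just below the lowest of the other 6, and Socs3 fell by 0.74 (SE 0.07, adjusted p = 0.00161). The naive factor genes Klf4 and Tfcp2l1 fell by 0.30 (SE 0.04, adjusted p = 0.00318) and 0.20 (SE 0.04, adjusted p = 0.0123), and Pim1 by 0.16. The call of Tfcp2l1 was lost without shLuc replicate 3 (adjusted p = 0.0563). Gbx2 and Bcl3, also STAT3 targets, rose by 0.45 (SE 0.04, adjusted p = 0.00161) and 0.37 (SE 0.04, adjusted p = 0.00206). Stat3 itself differed by 0.06 (adjusted p = 0.476).

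Of 29 core and naive pluripotency genes, 4 fell (13.8%) and 3 rose (10.3%), with a median of -0.01, against 5.48% lower and 6.56% higher among all genes. With 6 arrays 3 fell and 5 rose, and without shLuc replicate 3 the 9-array counts were 2 and 1. Klf4 ran from 10.13 over 10.20 to 10.23 and was at 9.91, 9.95 and 9.81 in replicate 3, without overlap. Tbx3 fell by 0.23 and Klf2 by 0.19. Pou5f1, Nanog, Sox2 and Esrrb differed by 0.08, -0.01, -0.09 and -0.13, with adjusted p from 0.0644 to 0.821.

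Genes of the primed and formative epiblast moved in both directions. Of 23, 9 rose (39.1% against 6.56% of all genes) and 4 fell (17.4% against 5.48%), with a median of 0.08. Foxd3, a factor of the transition to the primed state, ran from 7.86 over 8.08 to 8.50 and was at 8.79, 8.56 and 8.91. It rose by 0.62 (SE 0.10, adjusted p = 0.00878), a call lost without shLuc replicate 3 (adjusted p = 0.0672). Grhl2, an epithelial factor of formative cells, rose by 0.54 (SE 0.05, adjusted p = 0.00155) and the DNA methyltransferase gene Dnmt3b by 0.44 (SE 0.03, adjusted p = 0.00155), and neither overlapped between repeats. Dnmt3a rose by 0.27 and Pou3f1 by 0.30. Fgf5 and Otx2, standard markers of that state, differed by 0.15 and -0.20 and did not pass.

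Lefty2, an inhibitor of Nodal signalling, was the largest fall among them. It ran from 9.08 over 9.25 to 9.53 in replicates 1 and 2 and was at 8.49, 8.78 and 8.17 in replicate 3. No array overlapped, and Lefty2 fell by 0.79 (SE 0.09, adjusted p = 0.00292). Its relative Lefty1 fell by 0.41 (SE 0.06, adjusted p = 0.00665), a call lost without shLuc replicate 3 (adjusted p = 0.0534), and Id4 by 0.61 (SE 0.06, adjusted p = 0.00157). Nodal differed by 0.04 and did not pass. Of 23 Nodal and TGF-beta target genes, Lefty1, Lefty2 and Id4 among them, 4 fell (17.4% against 5.48% of all genes). On the same list 2 rose (8.70% against 6.56%), Inhbb at 0.20 among them, and the median was 0.03. The counts were 2 lower and 0 higher without shLuc replicate 3. Of the epiblast list, 3 rose and 1 fell without shLuc replicate 3. Without shApela_#1 replicate 3, 9 rose and 1 fell, and with 6 arrays 8 rose and 2 fell.

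Genes of lipid synthesis were also among those that fell. Of 30 genes of cholesterol and fatty acid synthesis, 11 fell (36.7% against 5.48% of all genes) and 1 rose (3.33% against 6.56%), with a median of -0.15. Insig1, the sterol sensor that holds SREBP in the endoplasmic reticulum, ran from 11.16 over 11.23 to 11.37 and was at 10.88, 10.90 and 10.65 in replicate 3. It lay below the other repeats on all 3 arrays and fell by 0.42 (SE 0.06, adjusted p = 0.00608). The desaturase gene Scd1 fell by 0.43 (SE 0.08, adjusted p = 0.0133), a call lost without shLuc replicate 3 (adjusted p = 0.0752), and Srebf2, the regulator of the pathway, by 0.22 (SE 0.03, adjusted p = 0.00748). Cyp51 and Acss2 fell further on the single replicate 3 array of shApela_#2, with interactions of -0.45 (adjusted p = 0.0268) and -0.26 (adjusted p = 0.0455), whereas those of Insig1 and Scd1 did not pass (adjusted p = 0.178 and 0.0729). The falls of Cyp51 and Acss2 over all groups lost their calls without shLuc replicate 3, and that of Cyp51 also without shLuc replicate 2, shApela_#1 replicate 1 or shApela_#2 replicate 2 (adjusted p up to 0.0626). With 6 arrays, 7 genes fell and 2 rose. Without shLuc replicate 3, 2 fell, and without shApela_#2 replicate 3 the median was -0.09.

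A list of fatty acid oxidation genes and PPAR targets was added after values had been seen. Of 27, 6 fell (22.2% against 5.48% of all genes) and 4 rose (14.8% against 6.56%), with a median of -0.06. That median rested on shApela_#2, at -0.17, while it was 0 in shLuc, -0.01 in shApela_#1 and -0.0012 with 6 arrays, where 4 fell and 3 rose. The counts were 4 and 0 without shLuc replicate 3. Its largest falls were Fabp3, a fatty acid carrier, at -0.80 (SE 0.10, adjusted p = 0.00302), Cpt1a, the gatekeeper of mitochondrial fatty acid import, at -0.68 (SE 0.05, adjusted p = 0.00155), and Pdk4, which restrains pyruvate oxidation, at -0.67 (SE 0.08, adjusted p = 0.00302). Cpt1a ran from 9.95 over 10.02 to 10.10 and was at 9.34, 9.54 and 9.17 in replicate 3, without overlap. Of 31 lysosome and autophagy genes, 8 fell (25.8% against 5.48% of all genes) and 2 rose (6.45% against 6.56%). Lamp2 fell most, at -0.54 (SE 0.11, adjusted p = 0.0162). Without shLuc replicate 3 the Lamp2 call was lost (adjusted p = 0.0605) and 1 gene of the list fell, and with 6 arrays 3 fell.

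The largest fall of a protein-coding gene outside these groups was Copz2, a subunit of the COPI vesicle coat. It ran from 8.76 over 9.04 to 9.46 in replicates 1 and 2 and was at 7.78, 7.73 and 7.56 in replicate 3. The 3 arrays lay far below the rest, and Copz2 fell by 1.38 (SE 0.13, adjusted p = 0.00161), to 38.4%. Kdelr3, a receptor that returns proteins to the endoplasmic reticulum, fell by 0.77, the histone deubiquitinase gene Usp51 by 0.87, Greb1l by 0.95, the annexin gene Anxa5 by 0.71, Gprc5a by 0.71, Slc15a1 by 0.69 and the cyclin gene Ccng2 by 0.76. Gprc5a lost its call with 6 arrays (adjusted p = 0.0541) and Ccng2 without shLuc replicate 3 (adjusted p = 0.0528). Camk2n1, an inhibitor of a calcium-dependent kinase, fell by 0.69 (SE 0.05, adjusted p = 0.00155).

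Stress and damage lists other than the integrated stress response moved less. Heat shock chaperone genes rose in 6 of 21 cases (28.6% against 6.56% of all genes) and fell in 0, led by Hsph1 at 0.47 (SE 0.04, adjusted p = 0.00155). Oxidative stress genes rose in 7 of 27 (25.9%) and fell in 2 (7.41%), led by the heme oxygenase gene Hmox1 at 0.44 (SE 0.04, adjusted p = 0.0019). Genes of the unfolded protein response fell in 5 of 23 (21.7% against 5.48% of all genes) and rose in 0, led by the co-chaperone gene Dnajb9 at -0.28. That count was 2 with 6 arrays and lay between 1 and 3 in the 9 fits that each left out 1 array. Among 33 p53 targets, 9 fell (27.3% against 5.48% of all genes) and 4 rose (12.1% against 6.56%), with a median of -0.04. Without shLuc replicate 2 or shLuc replicate 3, 6 fell and 2 rose. Polk, a translesion polymerase gene, fell by 0.44 (SE 0.05, adjusted p = 0.00305), while Mdm2, the inhibitor of p53, fell by 0.15. Without shLuc replicate 3, 1 of the heat shock and 2 of the oxidative stress genes rose.

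**Figure D4:**
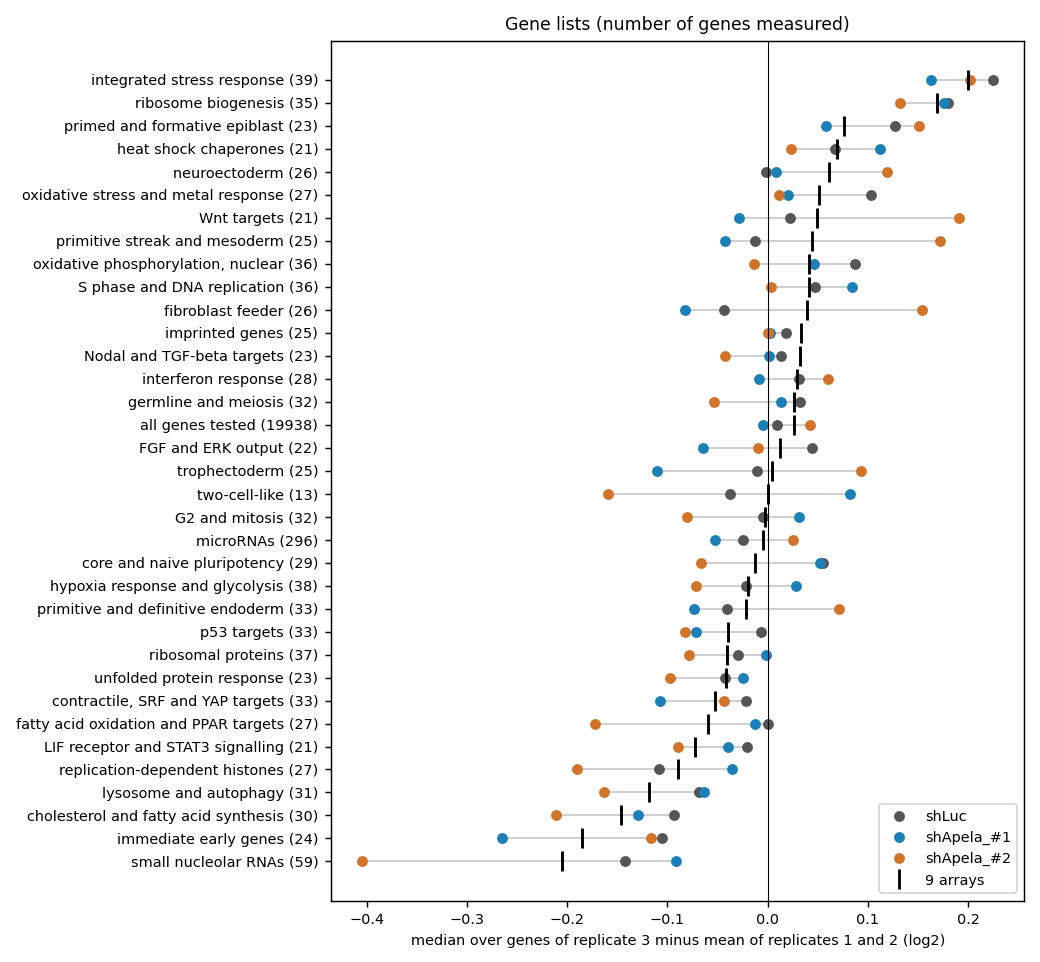
Median over the genes of each list of replicate 3 minus the mean of replicates 1 and 2 (log2, horizontal axis), for each hairpin group (points) and for all 9 arrays (bars), with the number of genes in parentheses. Integrated stress response (0.20) and ribosome biogenesis (0.17) are highest and small nucleolar RNAs (-0.20) and immediate early genes (-0.18) lowest, against 0.03 for all genes tested.

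Short non-coding RNAs and histone genes were also among the genes that fell, a few of them by a large amount. Of 59 small nucleolar and related small RNAs, which guide modification of ribosomal and spliceosomal RNA, 18 fell (30.5% against 5.48% of all genes) and 0 rose. Of the 59, 56 lay below 0, and the median was -0.20. Snora30 ran from 8.54 over 8.65 to 8.80 and was at 8.24, 8.22 and 7.82 in replicate 3, a fall of 0.56 (SE 0.09, adjusted p = 0.00747) without overlap. Scarna8 fell by 0.70 (SE 0.08, adjusted p = 0.00292). With 6 arrays 12 fell and 2 rose, and without shLuc replicate 3 the 9-array count was 7. The medians were -0.14 in shLuc, -0.09 in shApela_#1 and -0.40 in shApela_#2. Of 27 replication-dependent histone genes, whose transcripts normally lack a poly(A) tail, 7 fell (25.9% against 5.48% of all genes) and 0 rose. Their median was -0.09. With 6 arrays 3 of them fell, and without shLuc replicate 3 the count was 0. H3c15, the largest, ran from 7.87 over 7.94 to 8.22 and was at 7.26, 7.35 and 6.03, a fall of 1.10 (SE 0.21, adjusted p = 0.0137). Its call was lost without shLuc replicate 3 (adjusted p = 0.0518), and its fall was larger on the replicate 3 array of shApela_#2 (interaction -1.18, adjusted p = 0.0133).

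MicroRNA genes, a group added after values had been seen, fell in 23 of 296 cases and rose in 0. The share of 7.77% is near the 5.48% of all genes, and the median was -0.00, so the share is no result about the group. Among the 6 genes that fell at least 2-fold, 3 were microRNA genes, which describes these single genes and not the group. The array does not tell the mature form, the hairpin and the primary transcript apart. The mature sequences of called genes that share a seed (bases 2 to 8, in capitals, the part that pairs with targets), and of Mir363, the largest fall, are given from RefSeq, with GRCm38.p6 coordinates.
mmu-miR-15a-5p (chr14:61632075-61632096, minus strand): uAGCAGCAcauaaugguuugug
mmu-miR-15b-5p (chr3:69009775-69009796, plus strand): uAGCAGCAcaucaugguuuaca
mmu-miR-16-5p (chr3:69009918-69009939, plus strand): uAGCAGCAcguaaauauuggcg
mmu-miR-106a-5p (chrX:52742541-52742563, minus strand): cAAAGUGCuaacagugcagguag
mmu-miR-106b-5p (chr5:138165787-138165807, minus strand): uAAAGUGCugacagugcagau
mmu-miR-130a-3p (chr2:84741116-84741137, minus strand): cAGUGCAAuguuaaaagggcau
mmu-miR-301a-3p (chr11:87113054-87113076, plus strand): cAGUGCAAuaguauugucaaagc
mmu-let-7d-5p (chr13:48536078-48536099, minus strand): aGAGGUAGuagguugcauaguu
mmu-let-7f-5p (chr13:48537889-48537910, minus strand): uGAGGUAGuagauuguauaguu
mmu-let-7g-5p (chr9:106178846-106178867, plus strand): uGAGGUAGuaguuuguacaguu
mmu-miR-363-3p (chrX:52741697-52741718, minus strand): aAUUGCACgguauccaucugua
The first 3 share the seed AGCAGCA of the miR-15 family, which targets cyclin and BCL2 transcripts. The next share AAAGUGC (miR-17 family), then AGUGCAA (miR-130 family) and GAGGUAG (let-7, a family that opposes pluripotency), and AUUGCAC belongs to miR-363.

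Mir15a ran from 7.86 over 7.99 to 8.09 in replicates 1 and 2 and was at 6.89, 7.12 and 6.79 in replicate 3. The arrays lay well apart, and Mir15a fell by 1.06 (SE 0.05, adjusted p = 0.000291). Mir363 ran from 7.27 over 7.90 to 8.01 and was at 6.57, 6.52 and 5.89, a fall of 1.47 (SE 0.18, adjusted p = 0.003) that was larger on the array of shApela_#2 (interaction -0.86, adjusted p = 0.0456). Mir15b, with the same seed as Mir15a, lay lower, between 6.09 and 6.92 in replicates 1 and 2, and was at 5.48, 5.65 and 4.99. It fell by 1.07 (SE 0.18, adjusted p = 0.00971), a call lost without shLuc replicate 3 (adjusted p = 0.0605). The median probe set of the array was at 7.06, so Mir15b, and Mir106a, Mir130a, Mir301 and Mirlet7f-1 likewise, were measured in the dimmer part of the range.

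Members of one seed or cluster did not all move. Mir16-2, beside Mir15b, fell by 0.49 (SE 0.05, adjusted p = 0.00206) and Mir16-1, beside Mir15a, by 0.18 (SE 0.05, adjusted p = 0.0481), the latter not with 6 arrays (adjusted p = 0.125). Mirlet7f-1, Mirlet7g and Mirlet7d fell by 0.67, 0.47 and 0.41, while Mirlet7i differed by 0.12 (adjusted p = 0.287). Mirlet7f-1 lost its call without shLuc replicate 3 (adjusted p = 0.0593). Mir106a and Mir106b fell by 0.45 and 0.44, neither with 6 arrays, whereas Mir17 and Mir20a differed by -0.11 and -0.08 (adjusted p = 0.44 and 0.779). Mir302a, of a cluster typical of pluripotent cells, was also in the dim part of the range, between 4.98 and 5.21.

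Most measured genes that span these hairpins did not pass the test. Smc4, which spans Mir15b and Mir16-2, differed by -0.07 (SE 0.03, adjusted p = 0.172). Mcm7, which spans Mir106b, differed by -0.03 (adjusted p = 0.528), Dleu2, which spans Mir16-1, by -0.06 (adjusted p = 0.459), and Ska2, which spans Mir301, by -0.10 (adjusted p = 0.225). Copz1, which spans Mir148b, rose by 0.18 (adjusted p = 0.0113) where Mir148b fell by 0.27. Slit2, which spans Mir218-1, fell by 0.47 (SE 0.08, adjusted p = 0.00828), more than Mir218-1 itself (0.16). With 6 arrays 20 microRNA genes fell, 14 of them the same, and without shLuc replicate 3 the 9-array count was 12.

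**Figure D5:**
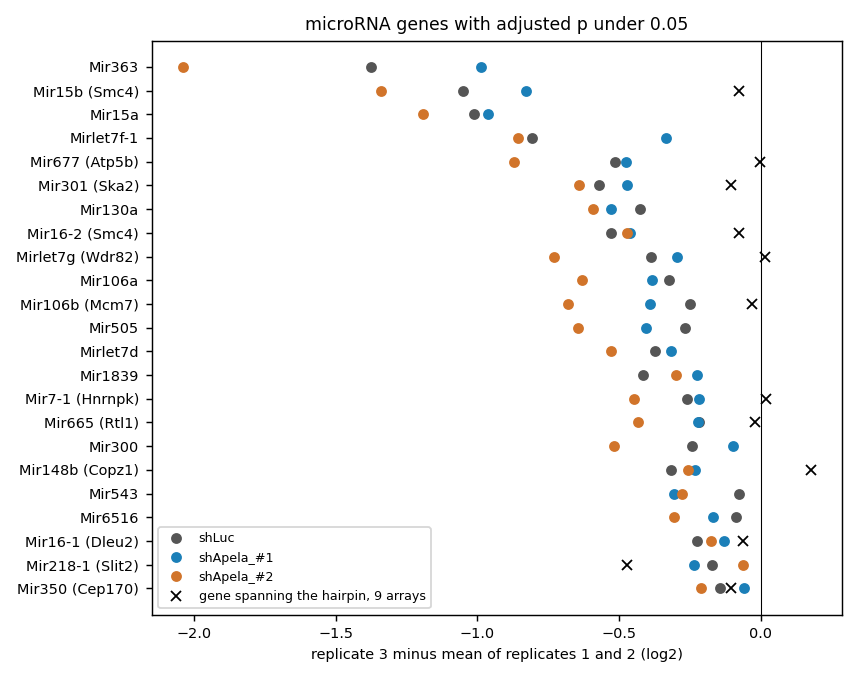
Replicate 3 minus the mean of replicates 1 and 2 (log2, horizontal axis) for the 23 microRNA genes past the threshold, with 1 point per hairpin group; crosses give the 9-array difference of the gene that spans the hairpin, named in parentheses where it was measured. All points lie left of 0, down to -1.47 on average for Mir363, while most crosses lie near 0.

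Few markers of other cell types passed the test. Among 33 endoderm genes 0 rose and 1 fell (3.03%), and among 25 of the primitive streak and mesoderm 1 rose and 1 fell (4% each). Of 26 neuroectoderm genes 3 rose (11.5% against 6.56% of all genes), Nefl among them, and 1 fell. Of 25 trophectoderm genes 1 rose and 3 fell (12% against 5.48% of all genes), among them Krt18, a keratin gene, at -0.50 (SE 0.08, adjusted p = 0.00658) and Tfap2c, a transcription factor gene, at -0.40 (SE 0.06, adjusted p = 0.00719). Of 26 fibroblast (feeder) genes 0 rose and 3 fell (11.5%). When shLuc replicate 3 was left out, 1 neuroectoderm gene rose, and 2 trophectoderm genes and 1 fibroblast gene fell. The mean level of the fibroblast list was between 7.15 and 7.21 in replicates 1 and 2 and between 7.11 and 7.26 in replicate 3, and that of the trophectoderm list between 7.50 and 7.66 and between 7.45 and 7.60. Nefl belongs to the neuroectoderm list, whose mean was between 7.09 and 7.14 and between 7.14 and 7.24. In bulk samples, fewer cells of a type and less RNA per cell cannot be told apart. Of 32 G2 and mitosis genes 0 rose and 1 fell (3.1%), and of 36 S phase and replication genes 4 rose (11.1%) and 1 fell (2.78%). The part of these markers in the replicate 3 differences was not tested.

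The replicate 3 difference itself was compared between groups by interaction terms. Between shApela_#1 and shLuc limma called 0 genes (unadjusted p under 0.05 at 1382 genes, smallest adjusted p = 0.705), which does not show that they are alike. Between shApela_#2 and the mean of the others it called 4862 genes (24.4%), 3271 higher (16.4%) and 1591 lower (7.98%). The shApela_#2 side of this contrast holds 1 replicate 3 array, the narrow one, so that array and the hairpin group cannot be told apart. The count was 2149 after a second quantile normalization and 1479 without dim genes. Of the 2400 genes of the main comparison, 253 (10.5%) were among them. Copz2, Greb1l, Usp51, Kdelr3 and Fabp3 fell in every group and further on that array, with interactions of -0.66, -0.68, -0.65, -0.62 and -0.51.

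Other genes stood out on the replicate 3 array of shApela_#2. Olfr767, an olfactory receptor gene, was at 9.52 on the narrow array and between 8.37 and 8.72 on the other 8, and the keratin-associated gene Krtap10-10 at 7.86 against 6.77 to 7.18. Both were highest on that array. The zinc finger gene Zfp442 was at 6.03 against 7.05 to 7.48, and Nlrp4a, an oocyte gene, at 6.24 against 7.21 to 7.83, both lowest on that array. The direction of these calls turned with the scaling: after centring of the arrays, 1942 were higher and 3188 lower, so no direction is given for the whole set. The opposite pattern, a rise in shLuc and shApela_#1 with little difference in shApela_#2, held for Nqo1, a quinone reductase gene of the oxidative stress list. It was at 7.99 and 8.11 in replicate 3 of those groups against 7.38 to 7.50 in their other repeats, and at 7.22 in shApela_#2, against 7.10 and 7.22 (interaction -0.55, adjusted p = 0.0134).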

How the data were processed

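Total RNA was labelled and hybridised to Affymetrix arrays, per the labels. The deposited series table holds log2 expression values for 28853 probe sets on 9 arrays, which the authors made with RMA; the submitters' processing notes name Partek 6.6. No source used here states the settings or the log base; base 2 follows from the size of the values. RMA corrects background and quantile-normalizes all arrays together, which forces similar distributions. GEO's platform annotation gave 21775 probe sets 1 symbol, 1578 several and 5500 none. The brightest probe set stood for each of 19938 genes.

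Genes were tested with limma 3.58.1 in R 4.3.3 (lmFit and eBayes, two-sided, hairpin as block, 5 residual and 3.26 prior degrees of freedom), with Benjamini-Hochberg adjustment over 19938 genes and a threshold of 0.05. The 6-array fit and the interaction fit each had 3 residual degrees of freedom. No replicate pairing was assumed. The script was tested on simulated data. With 9 arrays, their number limits the precision.

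The comparison, the 33 gene lists and the 3 lists added later were chosen with earlier results of these data known. Named genes were the 15 largest rises and falls past the threshold with replicate 3 beyond both others in all 3 groups, the 10 largest on each side with shLuc and shApela_#1 alone, up to 4 genes per list, up to 5 per side for each interaction, and Apela. Small RNAs and predicted genes entered through the lists only. Other list members, the genes spanning microRNAs and the microRNA families were chosen after their values were seen. RefSeq sequences (GRCm38.p6) were found for 271 of 296 microRNA genes.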

Additional observations from a re-analysis of the deposited data

Results flagged for a closer look

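By the interaction test of limma, the replicate 3 difference of shApela_#2 departed from the mean of shLuc and shApela_#1 at 4862 genes. The shApela_#2 side rests on 1 replicate 3 array, the one with the narrow spread, so that array and the hairpin group cannot be told apart. The values in parentheses are that interaction on the log2 scale, for the named genes with an adjusted p under 0.05. It was above 0 for Vrtn (0.54), Krtap10-4 (0.76), Olfr767 (0.98), Krtap10-10 (0.94), Prp2 (0.83), Tns1 (0.92). Of these, Vrtn was higher in replicate 3 in all 3 groups, with the largest rise in shApela_#2.

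It was below 0 for Accsl (-0.50), Eef1akmt1 (-0.59), Arxes1 (-0.71), Nqo1 (-0.55), Hormad2 (-0.34), Zfp352 (-0.59), Ndufb10 (-0.29), Tdpoz2 (-0.41), Rpl14 (-0.63), whose replicate 3 values were higher in shLuc and shApela_#1 than in their other repeats by more than in shApela_#2. For Zfp931 (-1.02), Nlrp4a (-1.15), Zfp442 (-1.16), Gpr137b-ps (-1.08), the fall was seen in shApela_#2, with little difference on average in the other groups. For Edem1 (-0.21), Fstl1 (-0.23), Cdc25c (-0.32), Ephx1 (-0.32), Acss2 (-0.26), Cyp51 (-0.45), Plk2 (-0.49), Snora31 (-0.44), Acot1 (-0.45), Meioc (-0.55), Sycp3 (-0.62), Snora20 (-0.66), Lamp2 (-0.58), Dusp4 (-0.27), Slc15a1 (-0.40), Kdelr3 (-0.62), Fabp3 (-0.51), Usp51 (-0.65), Greb1l (-0.68), H3c15 (-1.18), Copz2 (-0.66), Mir363 (-0.86), replicate 3 was lower in the average of shLuc and shApela_#1 too, and further so in shApela_#2.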

How the results depend on the processing

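The 2400 calls of the 9-array comparison became 708 at a threshold of 0.01, 55 with a minimum of 1.5-fold, 1319 with no hairpin block, 677 with only shLuc and shApela_#2, 140 with only both Apela hairpins, and 5656 with array weights, whose estimation stopped before it converged. Leaving out 1 array gave between 663 and 2735. The 2317 calls of the 6-array comparison became 312 at 0.01, 42 with 1.5-fold and 937 with no hairpin block, and lay between 0 and 1471 when 1 array was left out. A second quantile normalization turned the 9-array split to 1596 higher and 1696 lower of 3292, and the 6-array split to 1277 and 1094 of 2371. The 4862 interaction calls of shApela_#2 became 2149 with that normalization (1177 higher, 972 lower), 1479 without dim genes (458 and 1021), and 5130 with centring. With every replicate number as its own level (a replicate block), the counts were 2053 and 2311; the labels do not say that a number marks a shared culture.

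Of 129 named genes past the threshold, 0 changed sign in 2705 alternatives and 2080 kept the call. All of these genes but Nqo1 and Zfp352 had replicate 3 beyond both others, on the same side, in all 3 groups. The alternatives reuse the same arrays, so the 0 is no test of stability. In the fits that left out 1 array, 68 of the 129 genes kept the call in all 9 and 61 lost it in at least 1. Of 756 list medians, 70 moved by more than 1 SD. That SD is the residual one of the list's array medians, after hairpin group and replicate 3 were fitted. Signal over background was not used here, so dim probe sets, most microRNAs among them, have no detection limit.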

Other observations

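Imprinted and germline genes were measured beside the groups above. Of 25 imprinted genes 5 rose (20%) and 3 fell (12%), against 6.56% higher and 5.48% lower among all genes, with a median of 0.03. With shLuc and shApela_#1 alone 5 rose and 0 fell, and between 0 and 2 fell in the 9 fits that each left out 1 array. The growth inhibitor gene Grb10 rose by 0.38 (SE 0.05, adjusted p = 0.00295), Mest by 0.29 (SE 0.03, adjusted p = 0.00206) and the cyclin-dependent kinase inhibitor gene Cdkn1c by 0.27 (SE 0.03, adjusted p = 0.00292). Of 32 germline and meiosis genes 6 rose (18.8% against 6.56% of all genes) and 3 fell (9.38% against 5.48%). The counts were 1 and 0 without shLuc replicate 3, and 11 and 1 without shApela_#2 replicate 3. Hormad1, of the meiotic chromosome axis, rose by 0.35 (SE 0.04, adjusted p = 0.00263), and Sycp3, of the synaptonemal complex, fell by 0.50 (SE 0.13, adjusted p = 0.0404), a call not kept with shLuc and shApela_#1 alone (adjusted p = 0.137) and lost in 7 of the 9 fits that each left out 1 array.

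Of 22 genes of FGF and ERK output, 5 rose (22.7% against 6.56% of all genes) and 6 fell (27.3% against 5.48%). With 6 arrays 6 rose and 2 fell, and the falls numbered between 2 and 5 in the fits that left out 1 array, with 2 without shApela_#2 replicate 3. The phosphatase genes Dusp4 and Dusp6, feedback inhibitors of ERK, fell by 0.54 (SE 0.06, adjusted p = 0.00202) and 0.31 (SE 0.05, adjusted p = 0.00739). Myc (0.75) and Ccnd1 (0.42), described above, were among the rises of the list. Fgf17, which belongs to the primitive streak and mesoderm list instead, rose by 0.44 (SE 0.06, adjusted p = 0.00454). Among 21 Wnt targets 5 rose (23.8% against 6.56% of all genes) and 1 fell (4.76% against 5.48%). Without shLuc replicate 3, 3 rose. The feedback inhibitor gene Notum rose by 0.32 (SE 0.04, adjusted p = 0.00361). Myc and Ccnd1 are on both the Wnt and the FGF and ERK lists, and Myc is on the immediate early list too. The rises of these lists are thus not separate observations. Of 33 contractile, SRF and YAP target genes, 6 fell (18.2% against 5.48% of all genes) and 1 rose (3.03% against 6.56%). The smooth muscle actin gene Acta2 had the largest fall, at -0.56 (SE 0.14, adjusted p = 0.0353), but lost its call with 6 arrays (adjusted p = 0.126) and in 7 of the 9 fits that left out 1 array. Krt18 followed at -0.50, the matricellular gene Ccn1 at -0.47 (SE 0.09, adjusted p = 0.018; adjusted p = 0.0557 with 6 arrays) and Thbs1, another matrix gene, at -0.43 (SE 0.06, adjusted p = 0.00388). With 6 arrays 3 of the list fell and 0 rose.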
